A study of Sus scrofa with 4 samples.

Results

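Expression of 10 melanocyte genes was examined in epidermal cells sorted from transgenic pigs by the activity of LGR5, a marker of hair follicle stem cells. The genes were taken by name from the deposited count table, which lists 29837 named genes, and all 10 were present. They are the pigment enzymes TYR, TYRP1 and DCT, the melanosome proteins PMEL and MLANA, the transcription factors MITF and SOX10, the receptors KIT and EDNRB, and the ligand KITLG. The question asked of them was how much of a melanocyte signal each sorted population carries.

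The pigs carried H2B-GFP, a green fluorescent protein joined to a histone, which had been knocked into exon 1 of 1 allele of LGR5, so that GFP marked the nuclei of cells in which LGR5 was active. The line came from clonal edited fibroblasts by somatic cell nuclear transfer, and both sorted populations carried the transgene. Live cells of the epidermis and hair of 2 juvenile pigs, 88R and 95R, were sorted into LGR5-high and LGR5-negative, which gave 1 RNA library for each population of each pig. The coat colour of the pigs is not given in the sources used here.

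Melanocytes are pigment cells that arise from the neural crest and settle in the basal epidermis and in the hair follicle. They make melanin inside melanosomes, organelles built on fibrils of PMEL, in which TYR catalyses the first step of melanin synthesis and TYRP1 and DCT act further along the eumelanin pathway. MITF switches on many pigment genes, and SOX10 acts upstream of MITF. Epithelial cells of skin signal to melanocytes through KITLG, which binds KIT, and through endothelins, which bind EDNRB. In the bulge of the follicle, melanocyte stem cells, which express DCT but little of the other pigment enzymes in mice, lie beside the LGR5 epithelial stem cells.

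The 4 libraries held between 30696803 and 32463362 counts on named genes. Levels are given as CPM, each count divided by its library's total after scaling for composition. A gene with 3 counts, used as the floor, had between 0.0873 and 0.105 CPM, and this floor covers counting error only. LGR5 itself had 4551 and 6224 counts in LGR5-high of pigs 88R and 95R, against 36 and 109 counts in LGR5-negative. KRT5, a basal keratinocyte keratin, had between 789559 and 842315 counts in every library. All 10 melanocyte genes passed the filter on low counts, and 9 of them, all but EDNRB, had at least 10 counts in every library. In RNA of a sorted population, fewer cells of a type and less RNA per cell cannot be told apart.

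Most of the pigment machinery was lower in LGR5-high than in LGR5-negative, while DCT, the remaining pigment enzyme, did not pass the test. By edgeR's quasi-likelihood test with an adjusted p-value under 0.05, 7 of the 10 genes were lower in LGR5-high, and 0 were higher. The lower genes were TYR, TYRP1, PMEL, MLANA, SOX10, EDNRB and KITLG, while DCT, MITF and KIT did not pass. EDNRB, with 7 counts in 1 LGR5-high library, passed the filter through LGR5-negative, and with at least 10 counts required in every library 6 of 9 tested genes were lower. Of all 15980 genes tested, 22.0% were lower and 22.7% were higher. At an unadjusted p-value under 0.05, the same 7 genes were lower and 0 were higher, with no share of all genes given here. DESeq2 and limma-voom each called 7 lower and 0 higher. Of all 15980 tested genes, DESeq2 called 3387 lower and 3329 higher, and limma-voom 3530 lower and 3664 higher. For the 7 genes both LGR5-high libraries lay below both LGR5-negative libraries, which held for 37.4% of all tested genes. The median log2 fold change, LGR5-high minus LGR5-negative, was -2.87 over the 10 genes and 0.02 over all tested genes.

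**Figure D1:**
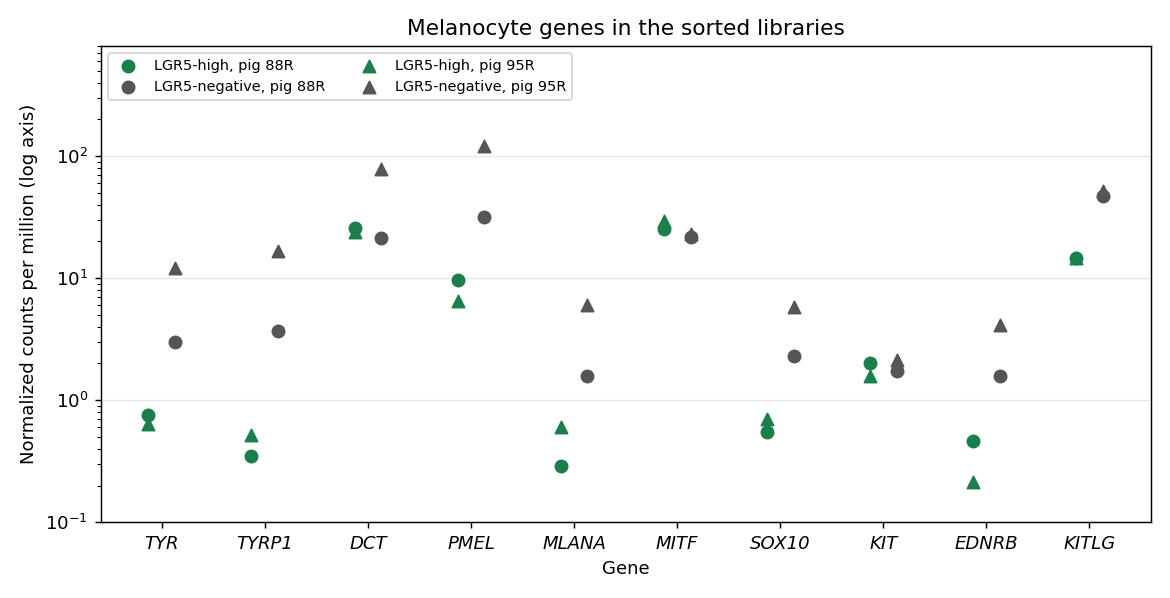
CPM of each gene on a log axis in the 4 libraries, with green for LGR5-high, grey for LGR5-negative, circles for pig 88R and triangles for pig 95R. For TYR, TYRP1, PMEL, MLANA, SOX10, EDNRB and KITLG both green points lie below both grey points, and for TYR, TYRP1, DCT, PMEL and MLANA the grey triangle of pig 95R lies 3.65 to 4.45 times above the grey circle of pig 88R.

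TYR, the rate-limiting enzyme of melanin synthesis, had 26 and 21 counts in LGR5-high of pigs 88R and 95R, against 85 and 365 counts in LGR5-negative. These counts correspond to 0.756 and 0.636 CPM in LGR5-high, and to 2.98 and 12.1 CPM in LGR5-negative. The LGR5-high pair was low and close together, and the LGR5-negative pair was higher and far apart. TYR had a log2 fold change of -3.43 (SE, the standard error, 0.709, edgeR quasi-likelihood adjusted p = 0.0116), while pig 88R alone gave -1.89 and pig 95R -4.12.

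TYRP1, a tyrosinase-related enzyme that stabilises tyrosinase, had the largest difference of the 10 genes in the fit. It had 12 and 17 counts in LGR5-high and 106 and 500 counts in LGR5-negative of pigs 88R and 95R. Its CPM was 0.349 and 0.515 in LGR5-high, and 3.72 and 16.5 in LGR5-negative. TYRP1 was thus present above the floor in all 4 libraries, with every LGR5-high value below every LGR5-negative value. A log2 fold change of -4.54 (SE 0.815, edgeR quasi-likelihood adjusted p = 0.00705) made TYRP1 23.3-fold lower in LGR5-high, while pig 88R alone gave -3.20 and pig 95R -4.84.

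For DCT, the dopachrome tautomerase, the populations overlapped. In LGR5-high it had 878 and 794 counts in pigs 88R and 95R, and in LGR5-negative it had 608 and 2352 counts. The CPM of DCT was 25.5 and 24.0 in LGR5-high, and 21.3 and 77.8 in LGR5-negative. In pig 88R DCT was slightly higher in LGR5-high, with a log2 fold change of 0.26, and in pig 95R it was lower, with -1.69. Over both pigs the log2 fold change was -1.00 (95% interval -2.35 to 0.35, edgeR quasi-likelihood adjusted p = 0.187). Fitted with a replicate block for the pig, DCT was called lower by edgeR, with a log2 fold change of -0.75 (edgeR quasi-likelihood adjusted p = 0.0267), and was not called by DESeq2 in the same design, at -0.72 (DESeq2 adjusted p = 0.565). Without the LGR5-negative library of pig 95R, the log2 fold change of DCT was 0.21, and without that of pig 88R it was -1.66 (edgeR quasi-likelihood adjusted p = 1.90e-04).

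PMEL, which forms the fibrils of the melanosome, had 335 and 213 counts in LGR5-high of pigs 88R and 95R, against 898 and 3631 counts in LGR5-negative. The CPM was 9.74 and 6.45 in LGR5-high, and 31.5 and 120.2 in LGR5-negative. MLANA, a melanosomal membrane protein known as a melanoma antigen, had 10 and 20 counts in LGR5-high and 45 and 183 counts in LGR5-negative. Both melanosome proteins were lower in LGR5-high in both pigs, and the difference was larger in pig 95R. PMEL had a log2 fold change of -3.23 (SE 0.645, edgeR quasi-likelihood adjusted p = 0.0103), while pig 88R alone gave -1.69 and pig 95R -4.21. For MLANA it was -3.09 (SE 0.750, edgeR quasi-likelihood adjusted p = 0.0200), with -2.21 and -3.19.

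**Figure D2:**
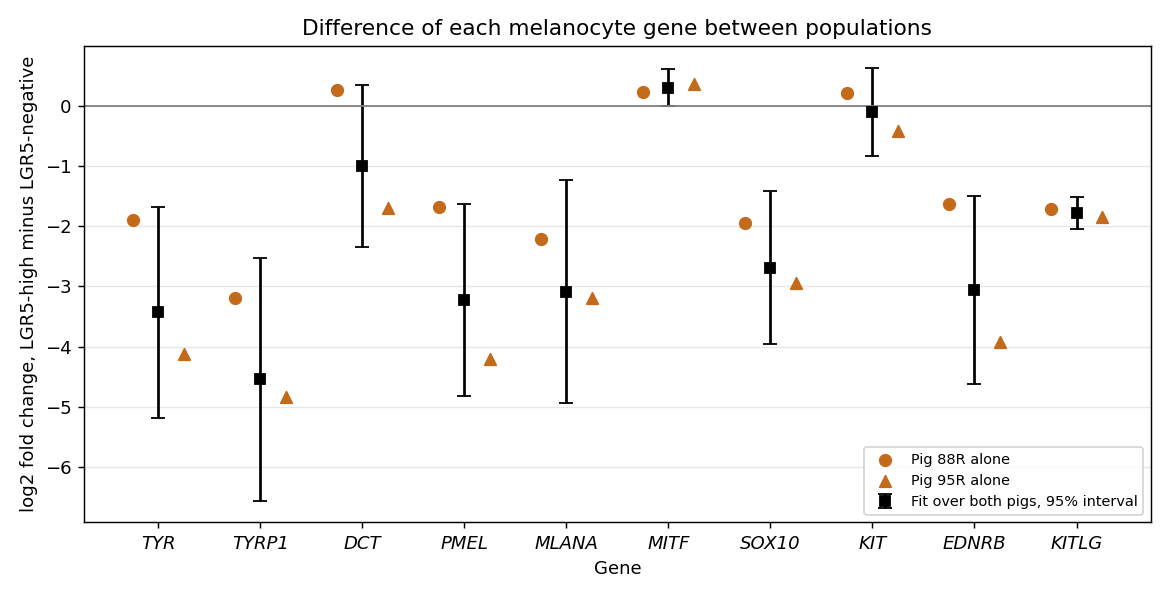
The log2 fold change of each gene, LGR5-high minus LGR5-negative, with the fit over both pigs and its 95% interval in black and each pig alone in orange. The interval lies below 0 for 7 genes and crosses 0 for DCT, MITF and KIT, and only DCT and KIT lie on opposite sides of 0 in the 2 pigs.

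Of the 2 transcription factors, SOX10 was lower in LGR5-high and MITF did not pass the test. SOX10, a factor of the neural crest lineage, had 19 and 23 counts in LGR5-high of pigs 88R and 95R, against 66 and 174 counts in LGR5-negative. SOX10 had a log2 fold change of -2.69 (SE 0.515, edgeR quasi-likelihood adjusted p = 0.00887), while pig 88R alone gave -1.95 and pig 95R -2.94. MITF, the regulator of pigment genes, had 868 and 980 counts in LGR5-high, and 615 and 694 counts in LGR5-negative.

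The CPM of MITF was 25.2 and 29.7 in LGR5-high, and 21.6 and 23.0 in LGR5-negative, so that both LGR5-high values were above both LGR5-negative values, as they were for 39.2% of all tested genes. The difference was small, with a log2 fold change of 0.30 (95% interval -0.01 to 0.61, edgeR quasi-likelihood adjusted p = 0.102). Pig 88R alone gave 0.23 and pig 95R 0.37. With the replicate block MITF was called higher by edgeR, at 0.30 (edgeR quasi-likelihood adjusted p = 0.0411), and was not called by DESeq2, at 0.29 (DESeq2 adjusted p = 0.239). With library size only in place of the scaling it was called higher, at 0.52 (edgeR quasi-likelihood adjusted p = 0.0181). MITF is transcribed from several promoters, of which 1 is used mainly by melanocytes, and counts per gene do not separate these forms.

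Of the 2 receptors, EDNRB was lower in LGR5-high and KIT did not pass the test. EDNRB, the endothelin receptor of melanocytes and their precursors, had 16 and 7 counts in LGR5-high of pigs 88R and 95R, against 45 and 125 counts in LGR5-negative. EDNRB had a log2 fold change of -3.06 (SE 0.632, edgeR quasi-likelihood adjusted p = 0.0115), while pig 88R alone gave -1.63 and pig 95R -3.93. KIT, the receptor tyrosine kinase for KITLG, had 69 and 52 counts in LGR5-high, and 49 and 64 counts in LGR5-negative.

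The CPM of KIT was 2.01 and 1.57 in LGR5-high, and 1.72 and 2.12 in LGR5-negative, and the groups overlapped. KIT had a log2 fold change of -0.10 (95% interval -0.83 to 0.64, edgeR quasi-likelihood adjusted p = 0.806), and the estimate turned to 0.12 with library size only in place of the scaling. KIT is also a receptor of mast cells and of gland cells. Of the mast cell markers, CPA3, HDC and FCER1A had at most 2 counts in any library. MS4A2, a subunit of the IgE receptor, had 5 counts in each LGR5-high library, and 27 and 47 counts in LGR5-negative.

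KITLG, the ligand of KIT, was the most evenly measured of the lower genes. It had 499 and 479 counts in LGR5-high of pigs 88R and 95R, against 1356 and 1579 counts in LGR5-negative. The CPM was 14.5 in both LGR5-high libraries, and 47.6 and 52.3 in LGR5-negative. KITLG had a log2 fold change of -1.78 (SE 0.106, edgeR quasi-likelihood adjusted p = 1.71e-04), while pig 88R alone gave -1.71 and pig 95R -1.84, so LGR5-high held 3.44-fold less.

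The LGR5-negative libraries of the 2 pigs differed widely in the pigment genes, while their LGR5-high libraries did not do so in one direction. In LGR5-negative, the CPM of pig 95R was 4.05 times that of pig 88R for TYR, 4.45 times for TYRP1, 3.65 times for DCT, 3.81 times for PMEL and 3.83 times for MLANA. SOX10 and EDNRB followed with 2.49 and 2.62 times. KITLG, KIT and MITF differed less, with 1.10, 1.23 and 1.06 times. Of the 15790 genes compared between these 2 libraries, 4.02% were more than 2 times higher in pig 95R, and the median ratio of the larger to the smaller pig was 1.13. In LGR5-high the same ratio lay between 0.455 for EDNRB and 2.08 for MLANA, with 0.840 for TYR, 0.941 for DCT and 0.662 for PMEL. Each of these ratios compares 1 library with 1 library, so no test was made.

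Summed over TYR, TYRP1, DCT, PMEL and MLANA, LGR5-high held 36.7 CPM in pig 88R and 32.2 CPM in pig 95R, and LGR5-negative held 61.1 and 232.7 CPM. The sum in LGR5-negative was 1.67 times that in LGR5-high in pig 88R and 7.22 times in pig 95R. Without DCT, the sums were 11.1 and 8.20 CPM in LGR5-high and 39.8 and 154.8 CPM in LGR5-negative, and pig 88R then had a ratio of 3.57 and pig 95R one of 18.9.

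The make-up of these pigment counts separated the populations in both pigs, and in LGR5-negative it was alike in the 2 pigs. DCT made up 69.6% of the counts of the 5 genes in LGR5-high of pig 88R (exact 95% interval 67.0 to 72.2) and 74.6% in that of pig 95R (71.8 to 77.1). In LGR5-negative it made up 34.9% in pig 88R (32.7 to 37.2) and 33.5% in pig 95R (32.3 to 34.6). The intervals cover counting error only. Because the length of a gene is the same in every library, such shares compare libraries with each other and do not rank the genes by level.

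For each count of TYR there were 33.8 and 37.8 counts of DCT in LGR5-high of pigs 88R and 95R, against 7.15 and 6.44 in LGR5-negative. Per count of PMEL there were 2.62 and 3.73 counts of DCT in LGR5-high, and 0.677 and 0.648 in LGR5-negative. PMEL itself made up 26.6% and 20.0% of the 5-gene counts in LGR5-high, and 51.5% and 51.6% in LGR5-negative. TYRP1 made up 0.952% and 1.60% in LGR5-high, and 6.08% and 7.11% in LGR5-negative. The LGR5-negative libraries of the 2 pigs thus held nearly the same proportions at levels 3.81-fold apart. With 2 libraries against 2, an exact permutation test cannot give a two-sided p-value under 0.333, and the shares are given without a test.

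**Figure D3:**
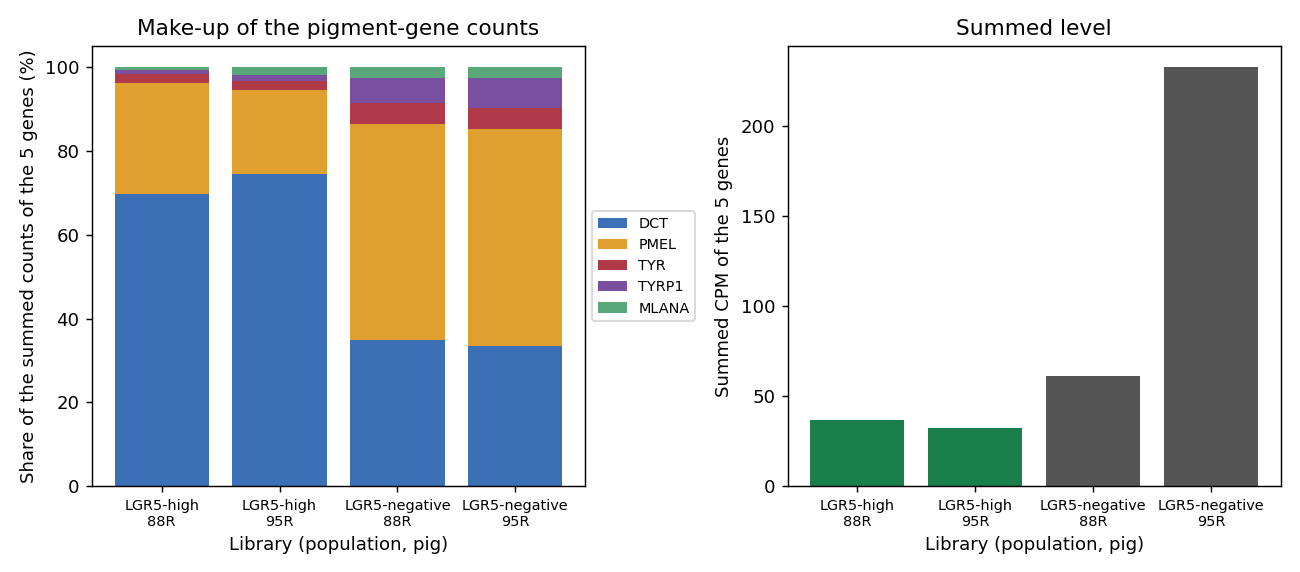
Left, the share in percent of each of 5 pigment genes in their summed counts, and right, their summed CPM, in the 4 libraries. DCT fills 69.6% and 74.6% of the LGR5-high bars and 34.9% and 33.5% of the LGR5-negative bars, whose summed levels are 61.1 and 232.7 CPM.

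Other genes of pigment cells were mostly lower in LGR5-high as well. Of 11 such genes, 9 were tested, of which 8 were lower, 0 were higher, and MIA did not pass. Their median log2 fold change was -3.23, while pig 88R alone gave -1.31 and pig 95R -3.22. OCA2, SLC24A5, MC1R and PAX3 were under 10 counts in both LGR5-high libraries and passed the filter through LGR5-negative, so their share of calls carries no weight of its own. With at least 10 counts in every library, 4 of 5 tested genes were lower.

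TRPM1, a channel made by melanocytes, had 18 counts in both LGR5-high libraries, and 90 and 259 counts in LGR5-negative of pigs 88R and 95R. TRPM1 had a log2 fold change of -3.45 (edgeR quasi-likelihood adjusted p = 0.00474). OCA2, a melanosomal transport protein, had 9 and 2 counts in LGR5-high, and 14 and 79 in LGR5-negative. For SLC24A5, a cation exchanger of pigment cells, the counts were 5 and 3 in LGR5-high, and 13 and 64 in LGR5-negative. MC1R, the melanocortin receptor, had 2 counts in each LGR5-high library, and 12 and 33 in LGR5-negative.

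In LGR5-negative, OCA2 was 5.32 times higher in pig 95R than in pig 88R, SLC24A5 4.64 times, TRPM1 2.71 times and MC1R 2.59 times. GPNMB and IRF4, which leukocytes also express, were lower in LGR5-high without this difference between the pigs. GPNMB had a log2 fold change of -2.64 and IRF4 one of -3.41 (edgeR quasi-likelihood adjusted p = 3.54e-04 and 7.39e-04). Their ratio of pig 95R to pig 88R in LGR5-negative was 1.38 and 0.604. Without the LGR5-negative library of pig 95R, the median log2 fold change of the tested genes of this list was -2.16. It was -3.04 without the LGR5-high library of pig 88R and -2.97 without that of pig 95R. In each of these fits fewer genes were called lower, both in this list and over all tested genes.

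Genes that signal to melanocytes moved in both directions. Of 18 such genes, 14 were tested, and 6 were higher and 4 lower in LGR5-high, with a median log2 fold change of 0.29. EDNRA, the other endothelin receptor, had 675 and 737 counts in LGR5-high of pigs 88R and 95R, against 54 and 59 counts in LGR5-negative. EDNRA had a log2 fold change of 3.44 (SE 0.165, edgeR quasi-likelihood adjusted p = 9.93e-05), against the -3.06 of EDNRB. The ligand gene EDN2 had a log2 fold change of 2.05 and FGF2, a growth factor for melanocytes in culture, one of 2.47. NRG1, a ligand of ERBB3, had 1.38. MET, the receptor of hepatocyte growth factor, was lower at -1.43, and ECE1, which cleaves the endothelin precursors, was higher at 1.34. EDN1 was lower, with 300 and 411 counts in LGR5-high and 602 and 673 in LGR5-negative, and a log2 fold change of -1.04.

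Of 6 genes by which epithelial cells of the follicle act on melanocyte stem cells in mice, 5 were higher and 1 was lower in LGR5-high. Over all tested genes 22.7% were higher and 22.0% lower, which is also the background of the other lists, and the list was chosen with earlier results known. TGFB2 and TGFB3, which belong to a family that holds melanocyte stem cells quiescent, had log2 fold changes of 1.98 and 2.23, and TGFB1 had 1.45. The transcription factor gene NFIB, which acts in the epithelial stem cells, had 0.95, and EDN2 is also part of this list. COL17A1, a collagen of the basal cell membrane, was lower at -0.47, and this call was lost with library size only, without the LGR5-high library of pig 88R, and without that of pig 95R.

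Among 13 relatives and regulators of MITF, 12 were tested, and 3 were higher and 4 lower in LGR5-high, with a median log2 fold change of -0.30. The higher genes were SOX9 at 4.41, TFAP2B at 1.65 and LEF1 at 0.62, of which SOX9 and LEF1 are also expressed by epithelial cells of the follicle. Lower were ZEB1 at -3.07, ZEB2 at -2.77, PAX3 at -2.23 and TFEB, a relative of MITF, at -1.08. ZEB1, ZEB2 and PAX3 had at most 7 counts in either LGR5-high library and passed the filter through LGR5-negative, so their calls carry no weight as a count. With at least 10 counts in every library, 3 of 9 tested genes were higher and 1 was lower, with a median of -0.06.

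Genes of melanosome building and transport, which most cells use for related organelles, were spread around small differences. Of the 24 genes, 1 was higher and 9 were lower, with a median log2 fold change of -0.18, and with library size only 7 were higher and 4 lower, with a median of 0.04. Library size only moved the median of all tested genes from 0.02 to 0.24, and called 5473 of all 15980 tested genes higher and 2326 lower. SLC7A11, a cystine transporter that affects pheomelanin, was higher at 2.76 (edgeR quasi-likelihood adjusted p = 4.11e-04). RAB38, which carries cargo to melanosomes, was lower at -1.67, with 398 and 685 counts in LGR5-high and 1047 and 2001 in LGR5-negative. LYST, a regulator of lysosome-related organelles, was lower at -0.87. The median of this list was -0.12 without the LGR5-high library of pig 88R and -0.16 without that of pig 95R. Without the LGR5-negative library of pig 95R it was -0.11. In each of these fits fewer genes were called lower, both in this list and over all tested genes.

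**Figure D4:**
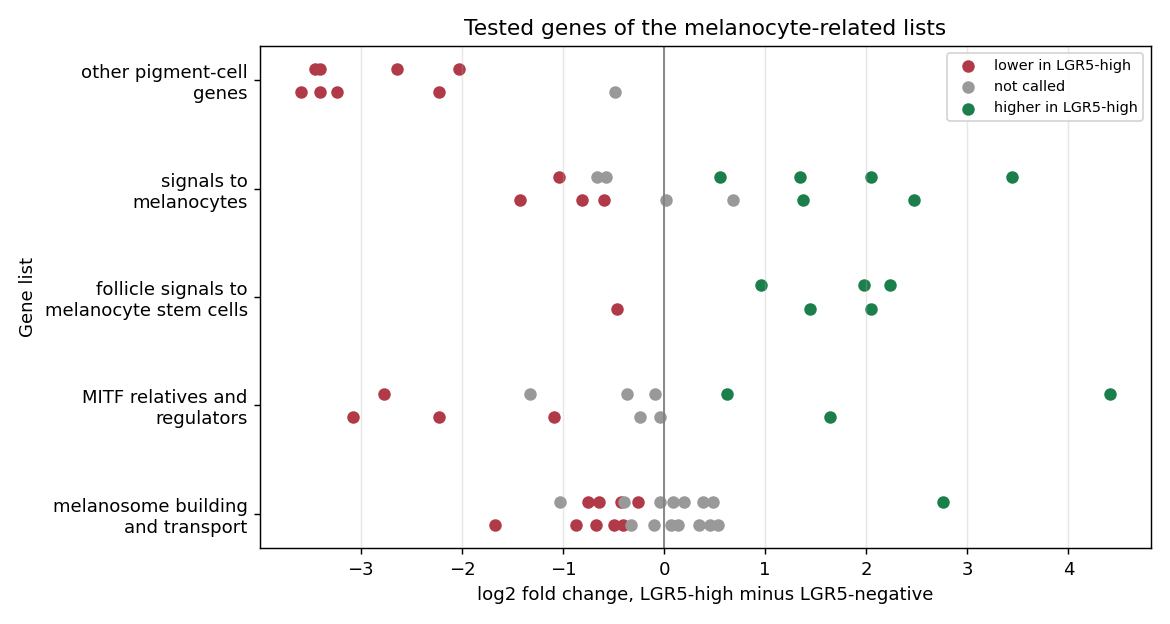
The log2 fold change, LGR5-high minus LGR5-negative, of every tested gene of 5 lists related to melanocytes, coloured by its call at an adjusted p-value under 0.05. Other pigment-cell genes lie left of 0, follicle signals to melanocyte stem cells lie right of 0 except COL17A1 at -0.47, and the other lists spread to both sides.

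Markers of other cell types moved with the populations too, and their part in the results on melanocyte genes was not tested. Of 6 markers of Langerhans cells and leukocytes, the 3 tested genes were lower in LGR5-high, and the summed CPM of the list was 6.02 to 7.74 in LGR5-high and 86.5 to 125.8 in LGR5-negative. CD3D had 0 counts in 3 libraries and 2 counts in LGR5-negative of pig 95R. Of 6 endothelial markers, 5 were lower and 0 higher, with summed CPM of 6.28 to 7.60 and 21.4 to 21.5. Mast cell markers, KIT among them, had 1.94 to 2.68 CPM in LGR5-high and 4.49 to 6.09 CPM in LGR5-negative, with 3 of the 4 tested genes lower. MS4A2, GATA2 and HPGDS, CD207 and PTPRC of the leukocyte list, and CDH5, KDR and CLDN5 of the endothelial list passed the filter through LGR5-negative, where they were high. With at least 10 counts in every library, 0 of 1 tested mast cell marker, 1 of 1 leukocyte marker and 2 of 3 endothelial markers were lower.

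The Schwann cell and nerve list, which includes SOX10, had 2 genes higher and 3 lower of the 6 tested, with 250.3 to 263.1 CPM in LGR5-high and 344.1 to 347.5 CPM in LGR5-negative, most of it ERBB3. CDH19, a cadherin of that list, had 0 counts in all 4 libraries. The sweat gland list, which includes SOX10 and KIT, had 4 genes higher and 1 lower of the 9 tested, with 113.8 to 136.7 CPM in LGR5-high, most of it KRT8 and KRT19, and 13.7 to 19.5 CPM in LGR5-negative. With at least 10 counts in every library, 3 of the 6 tested genes of that list were higher and 1 was lower. FOXI1 of that list had 0 counts in all libraries.

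Fibroblast markers had 728.3 to 1010 CPM in LGR5-high and 248.0 to 403.6 CPM in LGR5-negative, with 2 of 6 genes higher and 4 lower. With at least 10 counts in every library, 2 of 4 were higher and 2 lower. The higher sum came from COL1A1 and COL1A2, while PDGFRA, LUM, DCN and COL3A1 were lower. Smooth muscle and pericyte markers had 17.0 to 17.6 CPM and 4.81 to 5.89 CPM, with 4 of 5 tested genes higher. Merkel cell markers had 12.6 to 18.7 CPM and 3.54 to 3.77 CPM, with both tested genes higher. Of these, PIEZO2 passed the filter through LGR5-high, where it was high. With at least 10 counts in every library, 1 of 1 tested Merkel cell marker was higher. Keratinocyte markers had 30770 to 33236 CPM in LGR5-high and 81424 to 93242 CPM in LGR5-negative, where KRT1 and KRT10 were the 2 genes called lower of the 5 tested.

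**Figure D5:**
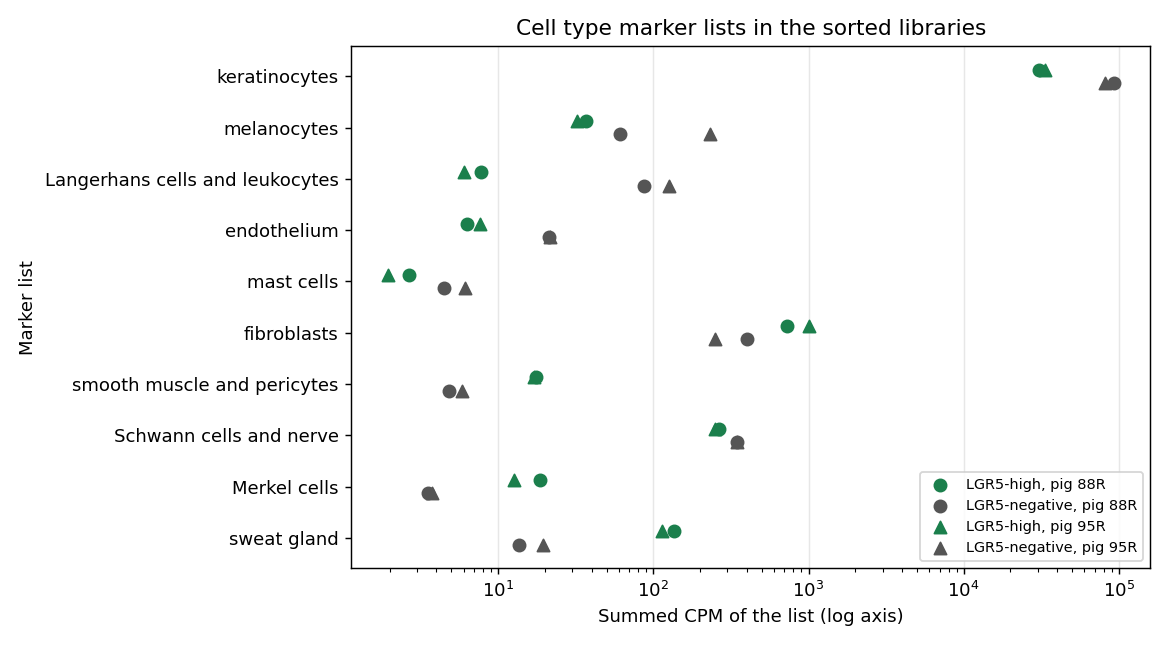
Summed CPM of each cell type marker list on a log axis in the 4 libraries, with green for LGR5-high, grey for LGR5-negative, circles for pig 88R and triangles for pig 95R. The melanocyte list lies at 32.2 to 36.7 CPM in LGR5-high and at 61.1 and 232.7 CPM in LGR5-negative, with the largest ratio between the pigs among the lists drawn.

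Leaving out 1 library changed either the calls or the size of the differences. Over all tested genes, too, fewer were called in each fit without 1 library than in the main fit. Without the LGR5-high library of pig 88R, TYR, MLANA and SOX10 lost their call, and without that of pig 95R, TYR, PMEL, MLANA and EDNRB lost it. The log2 fold changes of the lost calls were -3.56 and -3.30 for TYR, -2.66 and -3.69 for MLANA, -2.54 for SOX10, -2.95 for PMEL and -2.60 for EDNRB. Without the LGR5-negative library of pig 95R, in which the pigment genes were highest, the differences of the 7 genes were smaller. They were then -2.10 for TYR, -3.11 for TYRP1, -1.97 for PMEL, -1.82 for MLANA, -1.89 for SOX10, -2.21 for EDNRB and -1.72 for KITLG. Fitted with the replicate block in edgeR, 8 genes were lower and 1 was higher, beside 27.2% and 28.5% of all tested genes. With the block in DESeq2 7 were lower and 0 higher, beside 3146 and 3002 of all 15980 tested genes. The 2 pigs were the replicates. In edgeR's quasi-likelihood test the spread of each gene is also drawn towards that of the other tested genes. Without the block, each such p-value thus rests on the spread between 2 animals and on the spread of other genes. With the block, the spread between the animals is replaced by that of the population difference between the pigs.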

How the data were processed

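RNA was sequenced from LGR5-high and LGR5-negative epidermal cells of 2 juvenile pigs, with 1 poly(A) library per population and pig. The values deposited by the authors are whole-number read counts for each gene symbol, without normalization. The submitters' processing notes name Trimmomatic 0.36, STAR 2.5.2b and featureCounts of Subread 1.5.2. The genome build, the annotation, the strand setting and the treatment of reads shared between genes are not given in the sources used here, so no coordinates are printed, and gene lengths were not used. All 10 melanocyte genes matched RefSeq symbols of Sscrofa11.1. The 1 entry without a name, with 112153 to 193429 counts per library, was left out.

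The test was edgeR's (version 4.0.16, R 4.3.3). The filter on low counts was filterByExpr (minimum count 10, minimum total 15), which left 15980, libraries were scaled by TMM, with factors of 0.919 to 1.08, and the quasi-likelihood test had population as the only term. P-values are 2-sided with Benjamini-Hochberg adjustment over all tested genes, and genes under 0.05 were called. Log2 fold changes used a prior count of 0.125, and those within 1 pig a prior count of 2. Standard errors were taken from the fold change and its F statistic. The shares of DCT have exact (Clopper-Pearson) intervals.

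The libraries of 1 population were not alike within sampling noise: chi-square divided by its degrees of freedom was 16.1 between the LGR5-high and 18.1 between the LGR5-negative libraries. The population libraries were paired by the animal number in the labels, and libraries of 1 pig deviated together from their population means (r = 0.37 over 15980 genes). Alternatives were other scalings (DESeq2 size factors, upper quartile, library size only), 2 other filters, the replicate block, DESeq2 1.42.0 with and without it, limma-voom (limma 3.58.1), the methods' t-test on log2(CPM + 1), a prior count of 2, and leaving out each library. The tests were tested on simulated data with known changes. Plots were drawn with matplotlib 3.10.9.

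The genes and lists were chosen with earlier results of these data known. Named beside the 10 genes are up to 6 genes per list, mostly those with the largest log2 fold changes, and further genes chosen after their values were seen. MLPH, at -1.02, and TFEC were not called and were passed over, although LYST and TFEB, which are named, had smaller differences. KRT14 and CA2 were not found by name in the count table. The keratinocyte list was therefore summed over 5 of its 6 genes and the sweat gland list over 11 of its 12.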

Additional observations from a re-analysis of the deposited data

How the results depend on the processing

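KITLG was called lower under all 10 alternatives to the test, scaling or filter and without any 1 library. TYR, TYRP1, PMEL, MLANA and SOX10 were called under 9 of the 10, and EDNRB under 8 of the 9 that tested it. The exception was the methods' t-test, under which 1 gene was lower and 0 higher, with log2 fold changes on the log2(CPM + 1) scale of -2.09 for TYR, -2.67 for TYRP1, -2.81 for PMEL, -1.57 for MLANA, -1.54 for SOX10 and -1.45 for EDNRB (adjusted p between 0.184 and 0.267 over these genes). That scale shrinks low values by construction, and the cause of the lost calls was not tested.

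With edgeR and a replicate block for the pig, for which the pairing check gave 0.37, 8 genes were lower and 1 higher. This fit called DCT at -0.75 and MITF at 0.30 and changed no other call of the 10 genes. DESeq2 with the replicate block called neither (-0.72 and 0.29), and gave 7 lower and 0 higher. With library size only, 7 were lower and 1 was higher, MITF at 0.52, and KIT turned to 0.12. The adjusted p-values of these 10 alternatives ranged from 0.0267 to 0.612 for DCT, from 0.0181 to 0.239 for MITF and from 0.759 to 0.989 for KIT.

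When each library was left out, between 3 and 8 genes were lower. The log2 fold change then lay between -4.12 and -2.10 for TYR, -3.90 and -1.97 for PMEL, -3.76 and -1.82 for MLANA, -3.21 and -1.89 for SOX10, -3.74 and -2.21 for EDNRB, -5.26 and -3.11 for TYRP1, -1.66 and 0.21 for DCT, and -0.29 and 0.07 for KIT. KIT turned to 0.0699 without the LGR5-high library of pig 95R and to 0.05 without its LGR5-negative library, and DCT turned to 0.21 without the latter. A library left alone in its population is assumed to vary like the other population.

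Over all tested genes, 3632 were higher and 3508 lower. The methods' t-test called 544 and 502, and library size only called 5473 and 2326, while 2340 were higher without the LGR5-high library of pig 88R, and 2279 were higher and 2139 lower without that of pig 95R. Of the other pigment-cell genes, 8 were lower, against 4 with limma-voom and 0 with the methods' t-test. The cause was not tested. Depth limits MLANA, TYRP1 and EDNRB most, which had 7 to 20 counts in LGR5-high.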

Other observations

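S100B and NGFR, which mark cells of the neural crest lineage among others, moved opposite to SOX10. The counts of S100B, pig 88R first, were 213 and 421 in LGR5-high against 17 and 63 in LGR5-negative, with a log2 fold change of 2.81 (standard error 0.614, edgeR quasi-likelihood adjusted p = 0.0141). NGFR had 1757 and 2149 counts in LGR5-high, and 64 and 63 counts in LGR5-negative, with a log2 fold change of 4.74 (standard error 0.178, edgeR quasi-likelihood adjusted p = 6.28e-05). MIA, which melanoma cells secrete, had 34 and 53 counts in LGR5-high and 39 and 68 in LGR5-negative, and a log2 fold change of -0.48 (edgeR quasi-likelihood adjusted p = 0.370). PIEZO2, a mechanosensitive channel of Merkel cells and sensory neurons, had a log2 fold change of 4.08, with 389 and 238 counts in LGR5-high and 9 and 23 in LGR5-negative. KRT20, a keratin of Merkel cells, had between 8 and 12 counts in every library. These genes were singled out after their values were seen.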
